A study of Saccharomyces cerevisiae with 9 samples.

Results

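The genes of the yeast mating pheromone pathway were examined in budding yeast whose histone H3 carries a substitution at lysine 42. The set holds 10 genes chosen by name, GPA1, STE4, STE18, FUS3, STE12, FAR1, SST2, AGA1, FIG1 and FUS2, of 5449 S. cerevisiae genes with a probe set on the arrays. Each of the 10 had 1 probe set. Transcripts were measured in 9 cultures of strain JPY12 with 1 array per culture. In all of them H3 came from a plasmid. Residue 42 was alanine in 2 cultures (K42A), leucine in 2 (K42L), glutamine in 2 (K42Q) and the normal lysine in 3 (wild type). All cultures grew in YPD, a rich medium, to an A600 near 0.7, and no pheromone treatment is named in the labels. The labels call the 2 cultures of each mutant biological replicates, and they name no mating type.

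Haploid yeast cells find a partner through peptide pheromones. A pheromone binds a receptor of the other mating type, the receptor releases the G protein subunits Ste4 and Ste18 from the alpha subunit Gpa1, and a kinase cascade ending in Fus3 activates the transcription factor Ste12. Ste12 then drives genes for cell cycle arrest, adhesion, fusion and feedback. The G protein and much of the cascade are made in haploid cells before any pheromone is met, whereas many genes for adhesion and fusion are nearly silent until the pathway is switched on.

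In K42A and K42Q the genes for the G protein alpha and beta subunits and for the arrest factor Far1 fell, while the adhesion and fusion genes AGA1, FIG1 and FUS2 rose. FIG1 had the largest change of the 10, 8.11-fold higher in K42A and 5.08-fold higher in K42Q. In K42L no member passed the test. Signals are given on the linear scale of the deposited table, and changes are log2 differences of group means with their standard error (SE). A change was called at an adjusted p under 0.05 in limma's moderated test over all genes tested. Genes under a mean signal of 87.0 were left out of that test, which kept 4087 genes and 8 of the 10 members. FIG1 and FUS2 lay under that signal, so their changes come from the same model with no filter on low signals. All 10 members lay above the background of the array on each of the 9 arrays.

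The arrays fell into 2 classes of background that the labels do not name. K42A and wild-type replicates 2 and 3 had background medians of 2.2 to 2.65, and their bacterial spike-ins averaged 166.0 to 203.7. K42L, K42Q and wild-type replicate 1 had medians of 1.0 to 1.3 and spike-in means of 305.6 to 349.4. Within its class K42A is set against 2 wild-type arrays, and K42L and K42Q against wild-type replicate 1 alone. Signals are relative to an array's own trimmed mean, and in these bulk cultures fewer cells with a transcript and less RNA per cell cannot be told apart.

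**Figure D1:**
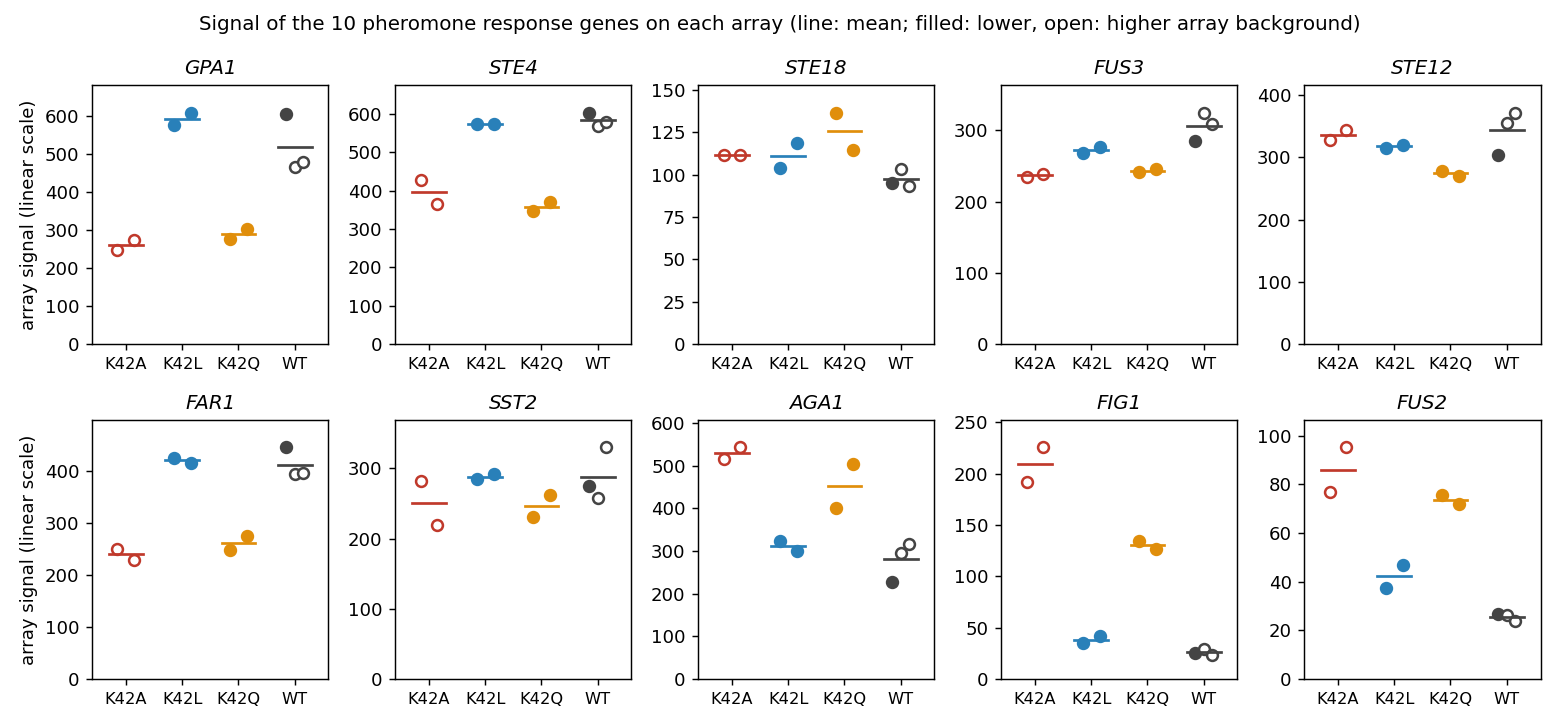
Signal of each of the 10 genes on a linear axis from 0, with 1 point per array, a line at the group mean, and filled or open points for arrays of lower or higher background. GPA1, STE4 and FAR1 lay lower in K42A and K42Q than on any K42L or wild-type array, and AGA1, FIG1 and FUS2 lay higher.

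The 3 G protein genes did not move together. GPA1 (YHR005C), for the alpha subunit that holds the pathway off, had signals of 247.5 and 273.2 in K42A, 576.6 and 608.0 in K42L, and 275.4 and 303.3 in K42Q, against 605.9, 466.3 and 478.1 in wild type. The K42A and K42Q arrays lay below all others, while K42L overlapped wild type. GPA1 fell by 0.98 ± 0.11 in K42A (SE, adjusted p = 0.00022) and by 0.83 ± 0.11 in K42Q (adjusted p = 0.000563). Set against the wild-type arrays of their own class, the changes were -0.86 in K42A and -1.07 in K42Q. In K42L the difference was 0.21 ± 0.11 (adjusted p = 0.361).

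STE4 (YOR212W), for the beta subunit that passes the signal on, had 428.0 and 366.2 in K42A, 574.6 and 573.4 in K42L, and 346.3 and 370.5 in K42Q, against 602.9, 569.5 and 579.8 in wild type. It fell by 0.56 ± 0.08 in K42A (adjusted p = 0.00059) and by 0.70 ± 0.08 in K42Q (adjusted p = 0.00016). K42A and K42Q overlapped each other and lay below every other array. K42L differed from wild type by -0.02 ± 0.08. Within the background class the changes of STE4 were -0.54 in K42A and -0.75 in K42Q.

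STE18 (YJR086W), for the gamma subunit that anchors Ste4 to the membrane, did not fall with them. Its signals were 111.6 and 111.4 in K42A, 103.7 and 118.8 in K42L, and 136.5 and 114.8 in K42Q, against 95.1, 103.4 and 93.0 in wild type. All 6 mutant arrays lay above the 3 wild-type arrays. The increase of 0.37 ± 0.10 in K42Q was called (adjusted p = 0.0201), and those of 0.20 ± 0.10 in K42A and 0.19 ± 0.10 in K42L were not (adjusted p = 0.143 and 0.356). The STE18 call in K42Q ended under quantile scaling (0.15), cyclic loess scaling (0.16) and median centring (0.25). It also ended without K42Q replicate 1 (0.24) and without wild-type replicate 3 (0.34).

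**Figure D2:**
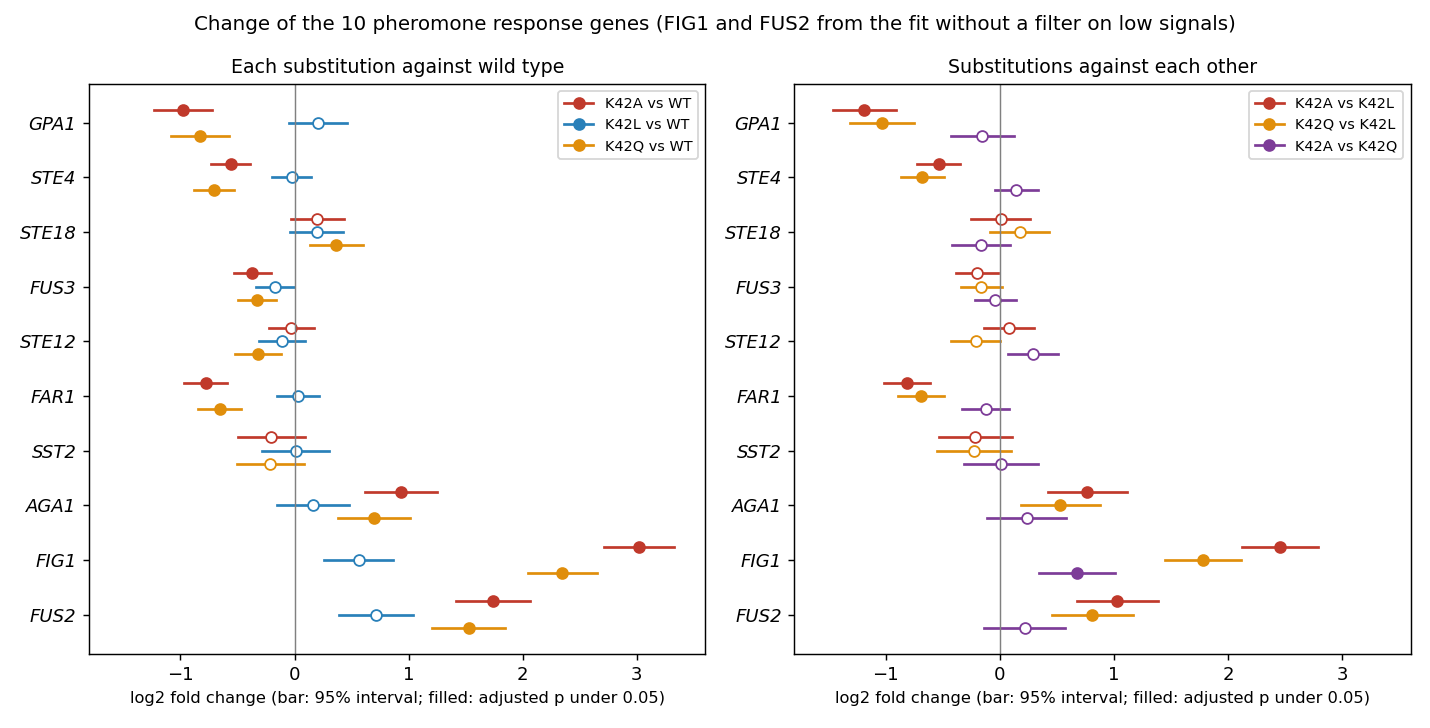
Log2 fold change of each gene with its 95% interval, for the substitutions against wild type (left) and against each other (right); filled points passed the test. K42A and K42Q are both filled against wild type, on the same side, for GPA1, STE4, FUS3, FAR1, AGA1, FIG1 and FUS2, whereas no K42L point is filled.

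FUS3 (YBL016W), for the kinase at the end of the cascade, had 234.7 and 238.6 in K42A, 267.6 and 276.1 in K42L, and 240.9 and 245.2 in K42Q, against 285.3, 324.6 and 308.4 in wild type. All 6 mutant arrays lay below wild type. It fell by 0.37 ± 0.07 in K42A (adjusted p = 0.00375) and by 0.33 ± 0.07 in K42Q (adjusted p = 0.00645), and differed by -0.17 ± 0.07 in K42L (adjusted p = 0.278). Scaling to the spike-ins within the background class ended both FUS3 calls, with changes of -0.19 in K42A and -0.15 in K42Q. Without K42Q replicate 1 the FUS3 change in K42Q was -0.32 (adjusted p = 0.0569). Without wild-type replicate 1 the FUS3 change in K42L, -0.22, was called (adjusted p = 0.0212). That fit leaves K42L no wild-type array of its background class, and within the class the change was -0.07.

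STE12 (YHR084W), for the transcription factor that Fus3 activates, had 327.0 and 344.5 in K42A, 314.8 and 320.3 in K42L, and 278.3 and 269.9 in K42Q, against 303.7, 355.6 and 371.6 in wild type. K42A and K42L lay inside the wild-type range and K42Q below it. In K42Q it fell by 0.32 ± 0.09 (adjusted p = 0.0181), while the differences in K42A and K42L were -0.03 ± 0.09 and -0.11 ± 0.09. Within the background class the STE12 change in K42Q was -0.15 (adjusted p = 0.122), and leaving out either K42Q array or wild-type replicate 2 or 3 also ended the call, at -0.34 to -0.26. The STE12 call ended too under spike-in scaling (-0.14, adjusted p = 0.406) and in a fit of the compared groups alone (-0.32, adjusted p = 0.0556).

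FAR1 (YJL157C), for the protein that arrests the cell cycle and orients growth towards the partner, had 250.2 and 228.7 in K42A, 424.6 and 415.5 in K42L, and 247.0 and 274.9 in K42Q, against 444.4, 394.1 and 395.9 in wild type. The levels in K42A and K42Q overlapped each other, and those in K42L lay within the wild-type range. FAR1 fell by 0.78 ± 0.08 in K42A (adjusted p = 0.000133) and by 0.66 ± 0.08 in K42Q (adjusted p = 0.000356), and differed by 0.03 ± 0.08 in K42L. The changes of FAR1 within the background class were -0.72 in K42A and -0.77 in K42Q.

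SST2 (YLR452C), for the protein that switches Gpa1 back to its resting state, was not called in any comparison of the fit over all arrays. It had 281.6 and 218.8 in K42A, 284.4 and 291.5 in K42L, and 231.2 and 262.7 in K42Q, against 275.3, 257.1 and 329.8 in wild type. All groups overlapped wild type. The difference from wild type for SST2 was -0.20 in K42A (95% interval -0.50 to 0.09), 0.01 in K42L (-0.28 to 0.31) and -0.21 in K42Q (-0.51 to 0.08). After median centring SST2 was called lower in K42A (-0.37, adjusted p = 0.0406). Relative to K42L, SST2 was called lower in K42Q within the background class (-0.22, adjusted p = 0.0233) and in a fit of the compared groups alone (adjusted p = 0.0245).

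AGA1 (YNR044W), for the anchor of the agglutinin by which mating cells adhere, had 516.3 and 543.0 in K42A, 322.8 and 300.1 in K42L, and 401.3 and 504.0 in K42Q, against 228.5, 295.8 and 317.6 in wild type. K42A lay above K42Q, K42Q above the rest, and K42L overlapped wild type. AGA1 rose by 0.93 ± 0.14 in K42A (adjusted p = 0.000919) and by 0.69 ± 0.14 in K42Q (adjusted p = 0.00417), and differed by 0.16 ± 0.14 in K42L. The AGA1 call in K42Q ended without K42Q replicate 2 (0.53, adjusted p = 0.0513). The changes of AGA1 within the background class were 0.79 in K42A and 0.98 in K42Q, and the difference in K42L was 0.45 (adjusted p = 0.0807).

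FIG1 (YBR040W), for a membrane protein of calcium uptake and fusion during mating, had 192.4 and 225.6 in K42A, 34.6 and 41.6 in K42L, and 134.7 and 126.7 in K42Q, against 25.1, 29.0 and 23.3 in wild type. No group overlapped another, and the order was K42A, K42Q, K42L and wild type. The increase was 3.02 ± 0.14 in K42A (adjusted p = 1.69e-06) and 2.35 ± 0.14 in K42Q (adjusted p = 2.61e-06). In K42L the difference of 0.56 ± 0.14 missed the threshold (adjusted p = 0.0897). Within the background class the changes of FIG1 were 3.0 in K42A and 2.38 in K42Q.

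FUS2 (YMR232W), for a protein needed for cell fusion, had 76.9 and 95.1 in K42A, 37.4 and 47.0 in K42L, and 75.4 and 71.8 in K42Q, against 26.7, 26.4 and 23.7 in wild type. All 6 mutant arrays lay above wild type. FUS2 rose by 1.74 ± 0.14 in K42A (adjusted p = 2.21e-05) and by 1.53 ± 0.14 in K42Q (adjusted p = 5.07e-05), and the difference in K42L was 0.71 ± 0.14 (adjusted p = 0.0637). The FUS2 changes within the background class were 1.77 in K42A and 1.46 in K42Q. Without wild-type replicate 1 both FUS2 (0.75, adjusted p = 0.0039) and FIG1 (0.55, adjusted p = 0.0128) were called in K42L. That fit sets K42L only against wild-type arrays of the other background class, so the substitution and the class cannot be told apart. Within the class the K42L differences were 0.65 for FUS2 and 0.60 for FIG1.

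Against wild type, 1 of the 8 members past the filter was higher and 4 were lower in K42A, with a median change of -0.29 against -0.01 over all genes tested. Of all genes tested 42.4% were called in K42A, 22.6% higher and 19.7% lower. In K42Q 2 members were higher and 5 lower, with a median of -0.33, where 39.6% of all genes were called, 21.4% higher and 18.2% lower. In K42L 0 of the 8 were called by limma, 1 (FUS3) had an unadjusted p under 0.05, and 0.661% of all genes were called. Without wild-type replicate 1, 3 of the 8 were called in K42L, with GPA1 higher by 0.33 and FUS3 and STE12 at -0.22 and -0.20. There K42L is set only against wild-type arrays of the other background class, so substitution and class cannot be told apart. Within the class the K42L differences were -0.03 for GPA1, -0.07 for FUS3 and 0.06 for STE12. Without K42Q replicate 1 the count in K42Q was 4. The split in K42A changed to 2 higher and 3 lower under spike-in scaling and to 1 higher and 5 lower after median centring. In K42Q it changed to 2 higher and 3 lower under spike-in scaling, and to 1 higher and 5 lower under quantile scaling, cyclic loess scaling and median centring. With no filter on low signals 3 of 10 members were higher and 4 lower in K42A, where 46.9% of all genes were called, 30.8% higher and 16.2% lower. In K42Q 4 were higher and 5 lower, where 43.3% were called, 28.7% higher and 14.5% lower. Without the filter the median change of all genes was 0.08 in K42A and 0.08 in K42Q, against -0.01 and 0.00 past it. The share of genes higher also rose without the filter, so genes of low signal were more often higher in both mutants. The share among the genes under the filter, where FIG1 and FUS2 lie, was not counted.

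Set against K42L, both K42A and K42Q had lower GPA1, STE4 and FAR1 and higher AGA1, FIG1 and FUS2. The 3 mutants were compared in 3 pairs, each within the model over all arrays, and the K42A and K42Q comparisons share the K42L arrays. In K42A, GPA1 fell by 1.19 ± 0.12 relative to K42L, STE4 by 0.54 ± 0.08 and FAR1 by 0.81 ± 0.09, while AGA1 was higher by 0.77 ± 0.15. That is 4 of 8 members past the filter, where 44% of all genes were called, 22.1% higher and 21.9% lower. In K42Q, GPA1 fell by 1.03 ± 0.12 relative to K42L, STE4 by 0.68 ± 0.08 and FAR1 by 0.69 ± 0.09, and AGA1 was higher by 0.53 ± 0.15, where 31.5% of all genes were called, 16.7% higher and 14.8% lower. FIG1 was higher by 2.46 ± 0.15 in K42A and by 1.78 ± 0.15 in K42Q, and FUS2 by 1.03 ± 0.16 and 0.81 ± 0.16, where 46.7% (29.1% higher, 17.5% lower) and 34.9% (23% higher, 11.9% lower) of all genes were called without the filter. With the background class as a block the AGA1 difference between K42A and K42L was 0.34 (adjusted p = 0.104), and no value within a class exists for that pair. The AGA1 call between K42Q and K42L ended after median centring (0.43) and without K42L replicate 1 (0.58), K42L replicate 2 (0.48) or K42Q replicate 2 (0.37).

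Between K42A and K42Q the difference passed the test for FIG1 and for 0 of the 8 members past the filter, of which 1 (STE12) had an unadjusted p under 0.05. Of all genes tested 18.1% were called between them, and 16.4% without the filter, 9.29% higher and 7.1% lower in K42A. FIG1 was higher in K42A than in K42Q by 0.67 ± 0.15 (adjusted p = 0.017). That call ended with the background class as a block (0.62, adjusted p = 0.0826) and without K42A replicate 2 (0.56), K42Q replicate 1 (0.72) or K42Q replicate 2 (0.63). The 95% interval of the difference, K42A minus K42Q, was -0.43 to 0.13 for GPA1, -0.05 to 0.33 for STE4, -0.33 to 0.08 for FAR1, -0.11 to 0.58 for AGA1 and -0.14 to 0.57 for FUS2. K42A and K42Q lie in different background classes, so substitution and class cannot be told apart in these intervals. With the class as a block GPA1 was at 0.21 and AGA1 at -0.19, both outside their intervals, while STE4, FAR1 and FUS2 stayed inside theirs. For STE12 the difference was 0.29 ± 0.10 (adjusted p = 0.0646). The STE12 difference was called without wild-type replicate 1 (adjusted p = 0.00345), under quantile scaling (0.28) and in a fit of the compared groups alone (0.29).

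Beyond the 10 members, 60 further genes of the pathway were listed by role, and 50 of them passed the filter. In K42A 14 were higher and 9 lower than in wild type, where 42.4% of all genes were called, 22.6% higher and 19.7% lower. In K42Q 4 were higher and 12 lower, where 39.6% of all genes were called, 21.4% higher and 18.2% lower. STE50 and RCE1, both called higher in K42A, passed the filter only through the K42A arrays, and among the other 48 genes 12 were higher and 9 lower in K42A. In K42L limma called 0 of the 50, and 14 had an unadjusted p under 0.05. The share of all genes with such a p in K42L was not counted, so the 14 are not read as a change of the pathway. The median change of the 50 was -0.02 in K42A, 0.00 in K42L and -0.08 in K42Q. Without wild-type replicate 1 the K42L count was 22, with 12 higher and 10 lower. That fit leaves K42L no wild-type array of its background class, and the share of all genes called in it was not counted. The balance of directions moved with the scaling. Under spike-in scaling the counts were 20 higher and 7 lower in K42A and 12 higher and 6 lower in K42Q. Quantile scaling gave 13 higher and 13 lower in K42A and 4 higher and 19 lower in K42Q, and median centring gave 11 higher and 16 lower in K42A.

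**Figure D3:**
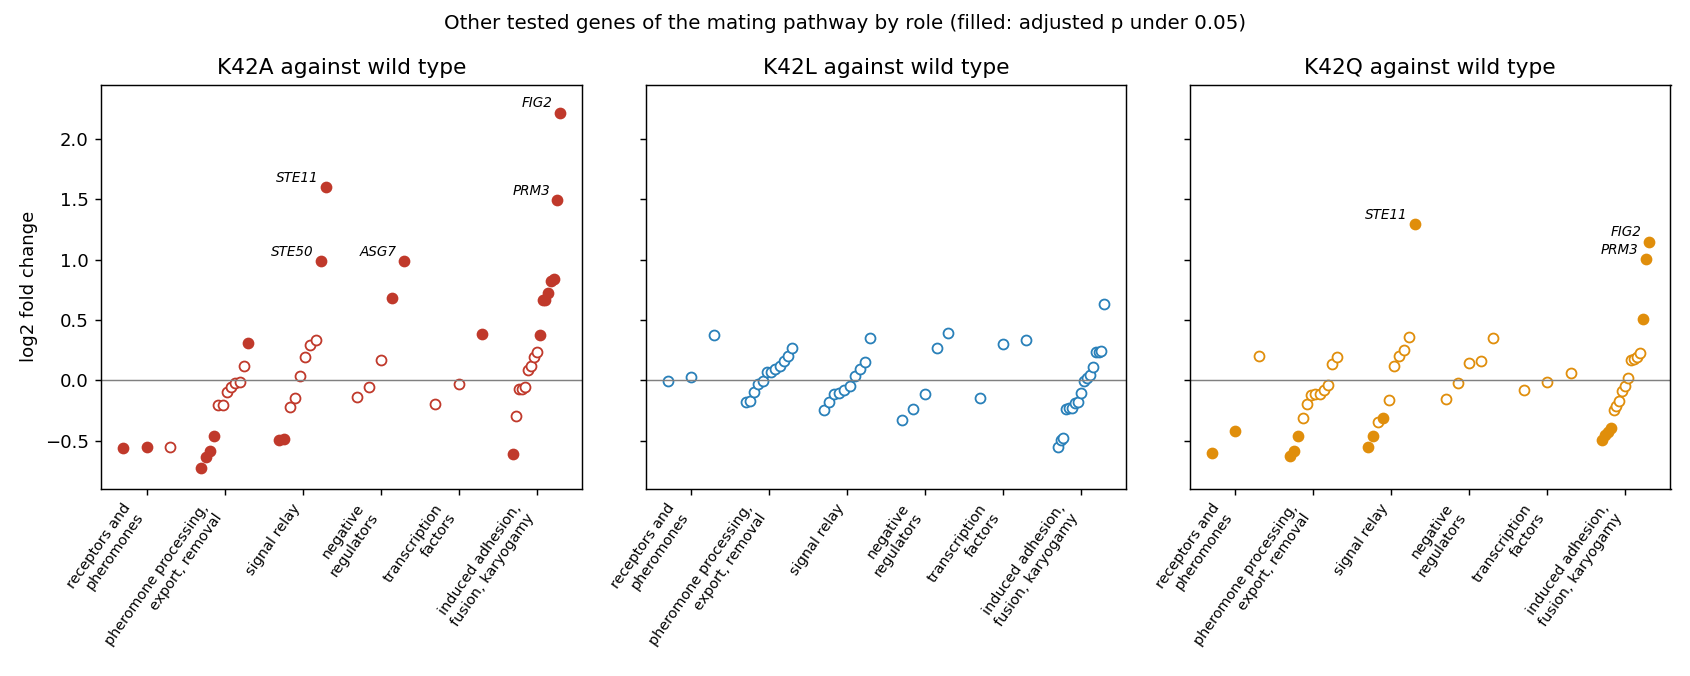
Log2 fold change against wild type of the 50 tested genes of the wider pathway, grouped by role along the horizontal axis, with filled points for genes that passed the test. Called genes of reception and pheromone processing lie mostly below 0 in K42A and K42Q, and FIG2, PRM3 and STE11 lie highest.

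Of the 3 receptor and pheromone genes past the filter, 2 fell in both K42A and K42Q, where 19.7% and 18.2% of all genes tested were lower. STE2 (YFL026W), for the receptor by which a cells sense alpha factor, had 1353 and 1255 in K42A, 2021 and 1786 in K42L, and 1175 and 1343 in K42Q, against 2088, 1809 and 1839 in wild type. It fell by 0.55 ± 0.10 in K42A and by 0.60 ± 0.10 in K42Q (adjusted p = 0.00237 and 0.00154). MFA2, for the a-factor pheromone, fell by 0.56 ± 0.14 in K42A and by 0.42 ± 0.14 in K42Q. The MFA2 call in K42A ended without K42A replicate 2 (-0.52). In K42Q it ended under spike-in scaling (-0.24), in a fit of the compared groups alone, and without K42Q replicate 1 (-0.24) or any 1 of the K42A and K42L arrays (-0.42). The second a-factor gene, MFA1, was at 399.3 and 407.3 in K42A, 745.1 and 790.2 in K42L and 622.5 and 739.8 in K42Q, against 842.7, 451.5 and 540.3 in wild type, and was not called. Set against the wild-type arrays of its class, MFA1 was called lower in K42A (-0.29, adjusted p = 0.0237). In K42Q MFA1 differed by -0.31 from wild-type replicate 1 alone (842.7), although its K42Q mean lay above wild type over all arrays (0.20). Within the class all 3 receptor and pheromone genes were called lower in K42A. All 3 also lay lower in K42Q than on wild-type replicate 1.

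Among 12 genes of pheromone maturation, export and removal, 1 was higher and 4 were lower in K42A, and 0 were higher and 3 lower in K42Q, beside 42.4% and 39.6% of all genes called. Quantile scaling gave 0 higher and 6 lower in K42A and 0 higher and 7 lower in K42Q, and the comparison within the background class gave 0 higher and 5 lower in K42Q. BAR1, for the protease with which a cells degrade alpha factor, fell by 0.72 ± 0.07 in K42A and by 0.58 ± 0.07 in K42Q. STE6, for the exporter of a-factor, fell by 0.64 ± 0.07 and 0.46 ± 0.07, and STE14, for the methyltransferase that finishes a-factor, by 0.59 ± 0.07 and 0.63 ± 0.07. RAM2, for a subunit of the enzyme that adds its lipid, fell by 0.46 ± 0.12 in K42A and differed by -0.32 ± 0.12 in K42Q (-0.38 within the background class, called, adjusted p = 0.00569). The RAM2 call in K42A ended under spike-in scaling (-0.28) and without K42A replicate 1 (-0.24). The gene that was higher in K42A was RCE1, which passed the filter only through the K42A arrays, so no change is given for it.

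Of 10 genes that relay the signal, 2 were higher and 2 lower in K42A, and 1 was higher and 3 were lower in K42Q. These counts lie near the share of all genes called, 42.4% in K42A and 39.6% in K42Q. Spike-in scaling gave 5 higher and 1 lower in K42A and 4 higher and 1 lower in K42Q. Quantile scaling gave 1 higher and 5 lower in K42Q, and within the background class 3 were higher and 2 lower there. STE11 (YLR362W), for the first kinase of the cascade, had 327.1 and 290.4 in K42A, 125.3 and 101.6 in K42L, and 243.1 and 255.5 in K42Q, against 97.5, 98.4 and 109.1 in wild type. It rose by 1.60 ± 0.11 in K42A and by 1.30 ± 0.11 in K42Q (adjusted p = 1.53e-05 and 3.33e-05). STE50, for an adaptor that binds Ste11, had 143.5 and 144.2 in K42A, 77.8 and 77.2 in K42L, and 83.3 and 83.6 in K42Q, against 78.8, 73.5 and 66.2 in wild type. It passed the filter of 87.0 only through the K42A arrays, so its levels are given as a description, and it is 1 of the 2 relay genes counted as higher in K42A. AKR1, for a palmitoyl transferase that restrains the pathway, fell by 0.48 ± 0.08 in K42A and by 0.55 ± 0.08 in K42Q. KSS1, for a kinase related to Fus3, fell by 0.50 ± 0.09 and 0.31 ± 0.09, with both calls ended by spike-in scaling (-0.32 and -0.13). Within the background class the KSS1 change in K42Q was -0.31 (adjusted p = 0.0663), and that call also ended without K42Q replicate 2 (-0.24) or wild-type replicate 2 (-0.30). CDC42, for the polarity GTPase, named after its value was seen, fell by 0.46 ± 0.08 in K42Q, and spike-in scaling ended that call (-0.28).

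Of 5 negative regulators past the filter 2 were higher in K42A and 0 were called by limma in K42Q, where 1 had an unadjusted p under 0.05. Of all genes tested 42.4% were called in K42A and 39.6% in K42Q. Within the background class 1 of the 5 was called higher in K42Q and 2 were called lower. ASG7, for a protein that acts on the G protein, rose by 0.99 ± 0.15 in K42A and differed by 0.14 ± 0.15 in K42Q. Within the background class the ASG7 differences were 1.16 in K42A and -0.20 in K42Q. PTP2, for a phosphatase of MAP kinases, rose by 0.68 ± 0.11 in K42A and differed by 0.16 ± 0.11 in K42Q. Of 3 further transcription factors KAR4, a partner of Ste12, was higher in K42A by 0.38 ± 0.09. The KAR4 call ended after median centring (0.21) and without K42A replicate 2 (0.36).

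The group of 23 further genes for adhesion, fusion and nuclear fusion held 17 past the filter. Of these 8 were higher and 1 was lower in K42A, with a median change of 0.24, where 22.6% of all genes were higher and 19.7% lower. In K42Q 3 were higher and 4 lower, with a median of -0.05, near the 21.4% higher and 18.2% lower of all genes. In K42L limma called 0, where 7 had an unadjusted p under 0.05, a share that was not counted over all genes. The K42A counts ran from 7 higher and 3 lower after median centring to 11 higher and 1 lower under spike-in scaling. In K42Q spike-in scaling gave 6 higher and 1 lower. FIG2 (YCR089W), for a cell wall adhesin of mating cells, had 670.6 and 859.9 in K42A, 150.3 and 136.9 in K42L, and 338.0 and 387.8 in K42Q, against 135.6, 176.1 and 181.8 in wild type. It rose by 2.22 ± 0.15 in K42A and by 1.15 ± 0.15 in K42Q, and K42A exceeded K42Q by 1.07 ± 0.16 (adjusted p = 0.00483). With the background class as a block that excess was 0.67 (adjusted p = 0.0225). Within the class the changes of FIG2 were 2.09 in K42A and 1.42 in K42Q.

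PRM3, needed for fusion of the nuclear envelopes, had 269.9 and 265.0 in K42A, 147.9 and 146.7 in K42L, and 215.2 and 168.9 in K42Q, against 101.8, 78.5 and 107.6 in wild type. It rose by 1.49 ± 0.14 in K42A and by 1.0 ± 0.14 in K42Q. PRM7, a pheromone-regulated gene, rose by 0.84 ± 0.13 in K42A and differed by -0.21 ± 0.13 in K42Q (-0.42 within the background class, adjusted p = 0.00528), and SAG1, for the agglutinin of alpha cells, rose by 0.83 ± 0.12 in K42A and differed by 0.22 ± 0.12 in K42Q (0.45 within the background class, called, adjusted p = 0.00615). Both differed between K42A and K42Q, PRM7 by 1.05 ± 0.14 (adjusted p = 0.00301) and SAG1 by 0.60 ± 0.13 (adjusted p = 0.0154). The SAG1 difference lost its call with the background class as a block (0.27) and without K42A replicate 2 (0.50) or either K42Q array (0.68 and 0.52).

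The gene of this group that fell in K42A was AGA2, for the subunit that a cells attach to Aga1. It had 357.0 and 333.7 in K42A, 543.8 and 510.6 in K42L, and 343.6 and 406.3 in K42Q, against 524.0, 544.3 and 516.6 in wild type. AGA2 fell by 0.61 ± 0.08 in K42A and by 0.50 ± 0.08 in K42Q, so the 2 genes of the a-cell agglutinin, AGA1 and AGA2, moved in opposite directions. FUS1, another fusion gene, named after its values were seen, had 225.3 and 238.4 in K42A, 153.7 and 163.0 in K42L, and 165.8 and 151.8 in K42Q, against 190.6, 168.7 and 178.6 in wild type. The FUS1 increase of 0.37 ± 0.08 in K42A lost its call after median centring (0.20) and without K42A replicate 2 (0.33). Within the background class FUS1 differed by 0.42 in K42A, and by -0.26 in K42Q against wild-type replicate 1 alone.

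Between K42A and K42Q 13 of the 50 further pathway genes were higher in K42A and 0 were lower, and 7 of the 13 belonged to the adhesion and fusion group. The 13 include STE50 and RCE1, which passed the filter only through the K42A arrays. Of all genes tested 9.96% were higher and 8.15% lower. Quantile scaling gave 16 higher and 3 lower. The count of 13 fell to 9 in the fit with the background class as a block, of which 6 were higher and 3 lower. It was 4 without K42A replicate 2, 7 without K42Q replicate 1, 3 without K42Q replicate 2 and 21 without wild-type replicate 1.

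Genes that mark the mating type moved beside these results. The cultures had transcripts of a cells, with STE2 at 1175 to 2088 on the 9 arrays. The alpha pheromone gene MF(ALPHA)1 lay at 4.8 to 16.1 and the alpha regulator HMLALPHA1 at 2.6 to 7.9, near the 95th percentile of array background of 4.4 to 9.6. Other alpha-specific genes lay higher, and SAG1 had a geometric mean of 154.1 over the 9 arrays, beside 131.1 for the a-specific ASG7. The mating type of the cultures is not named in the labels and was not tested. Of 7 genes specific to a cells 1 (ASG7) was higher and 5 were lower in K42A, with a median of -0.56, and 5 were lower in K42Q, with a median of -0.46. Of all genes tested 22.6% were higher and 19.7% lower in K42A, and 18.2% were lower in K42Q. In K42L limma called 0, and 2 had an unadjusted p under 0.05, a share that was not counted over all genes. Of the 4 alpha-specific genes, SAG1 passed the filter. STE3, for the alpha-cell receptor, was at 56.7 and 61.6 in K42A, 34.1 and 37.9 in K42L and 62.7 and 59.1 in K42Q, against 29.0, 29.6 and 27.3 in wild type. MF(ALPHA)2 was at 31.7 and 27.2 in K42A, 9.9 and 13.7 in K42L and 29.7 and 29.6 in K42Q, against 12.6, 19.5 and 14.0 in wild type.

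**Figure D4:**
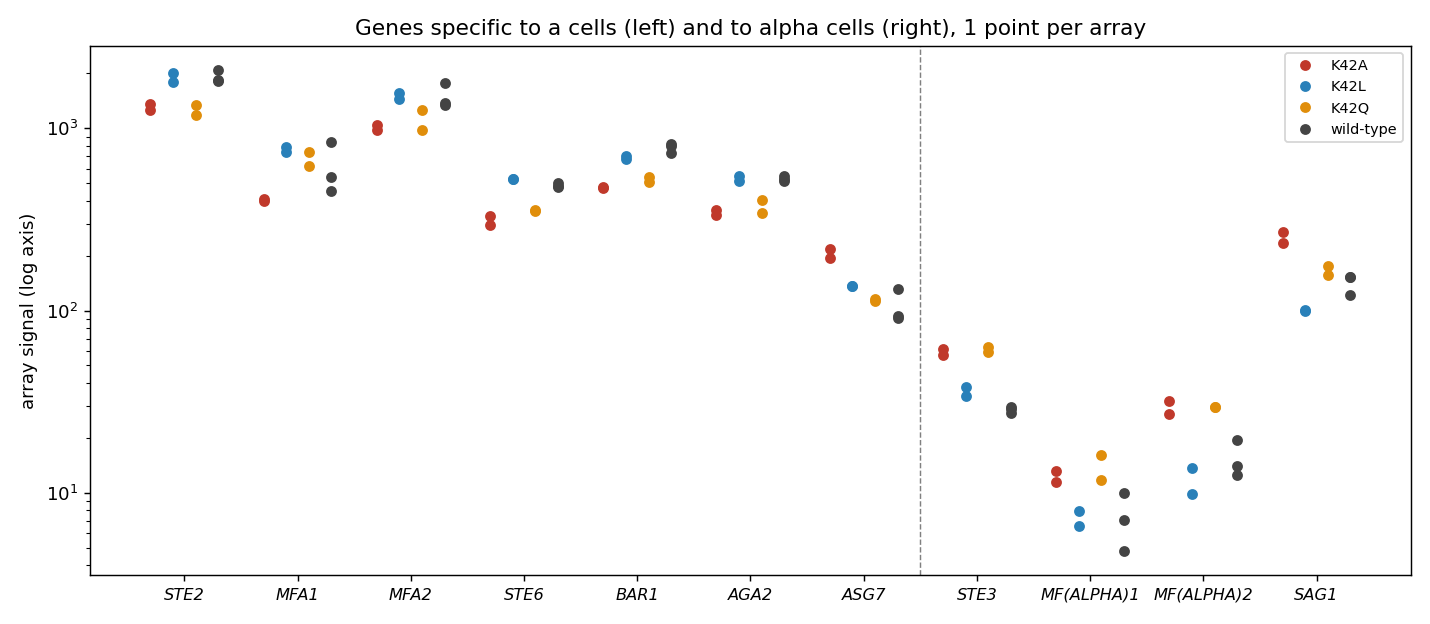
Signals of the a-specific genes (left of the dashed line) and alpha-specific genes (right) on a log axis, with 1 point per array and colours for the groups. STE2, STE6, BAR1 and AGA2 lie lower in K42A and K42Q than in K42L and wild type, and STE3 lies higher while staying at most at 62.7.

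Of the probe sets annotated to silent mating-type genes, that of HMRA1 lay at 78.0 to 105.4 on the 9 arrays and was not called. HMRA2 was higher in K42Q by 0.74 ± 0.18 (adjusted p = 0.0117), with wild type at 168.5 on replicate 1 against 104.2 and 110.9 on the others. The HMRA2 change in K42Q was 0.30 within the background class, where it kept its call (adjusted p = 0.0489), and 0.30 with the class as a block, where it lost it (adjusted p = 0.0584). The call also ended without K42Q replicate 1 (0.60). In K42A the HMRA2 difference of 0.41 was not called over all arrays (adjusted p = 0.0999), and within the background class it was 0.62 and called (adjusted p = 0.000823). Whether the HMRA1 and HMRA2 probe sets also read the active mating-type locus was not tested, so their signals are not assigned to the silent copies. Of 5 further haploid-specific genes past the filter 1 fell in each of K42A and K42Q, where 19.7% and 18.2% of all genes tested were lower. HO, AMN1, RME1 and STE5 were named after their values were seen. Within the background class RME1 was called lower in K42A (-0.59, adjusted p = 0.00219). STE5 lay higher by 0.43 in K42Q against wild-type replicate 1 alone. HO fell by 0.67 ± 0.18 in K42A, a call that ended without K42A replicate 1 (-0.70) or 2 (-0.63), and the HO change within the background class was -0.89. AMN1 fell by 0.55 ± 0.19 in K42Q, where the change within the background class was -0.06, while in K42A it was called lower within the class (-0.50, adjusted p = 0.000643). Of 12 general stress genes CTT1 lay under the filter, and DDR2, MSC1 and TMA10 passed it only through the K42A and K42Q arrays. Of the other 8, 7 were higher in K42A and 8 in K42Q, with median changes of 1.08 and 1.48, where 22.6% and 21.4% of all genes tested were higher. The part of mating-type genes and of stress genes in the changes of the members was not tested.

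For each member past the filter, the 2 genes with the most similar pattern over the 9 arrays were found by the root-mean-square difference of log2 signals centred on each gene's mean. The difference was smallest for STE12, whose neighbours were RPO31 (0.029) and TLD1 (0.040), and for FUS3, followed by FCY2 (0.041) and YDR415C (0.043). FAR1 was followed by APT1 (0.077) and LHP1 (0.078), and GPA1 by LHP1 (0.16) and RPS22B (0.17). STE4 lay nearest to SFG1 (0.069) and SUR7 (0.070), and STE18 to YPR089W (0.055) and YCS4 (0.065). SST2 lay nearest to TCP1 (0.083) and COP1 (0.088), and AGA1 to MEP2 (0.11) and AST2 (0.12). No neighbour was another gene of the pathway lists. The standard deviation of the members over the arrays ran from 0.15 for STE12 to 0.54 for GPA1. A gene that varies little can have small differences by this measure, so they do not rank the members by likeness of pattern.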

How the data were processed

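Total RNA of 9 yeast cultures was hybridised to 1-colour arrays, 1 per culture. The deposited values are signal intensities on a linear scale, made with GCOS 1.4 and MAS5 per the submitters' processing notes. A MAS5 version, scaling target and genome build were not given in the sources used here. Trimmed by 2 percent on each side, every array's mean signal was 150.1, so the authors' signals had a common scale, and they were used as log2 values with no further scaling. Of 98352 values 126 were 0 and were set to 0.1.

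Of 10928 probe sets, 5498 were annotated to 1 S. cerevisiae gene, 1 to several genes and 3517 to none, and 166 were controls. A further 1746 listed a gene outside S. cerevisiae, were taken as probes for another yeast, and gave each array's background. With the brightest probe set taken per gene, 5449 genes were measured. The test kept 4087 genes, those with a mean log2 signal at or above the 25th percentile.

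limma 3.58.1 in R 4.3.3 was fitted with 1 mean per group over all 9 arrays, with an intensity trend and Benjamini-Hochberg adjustment over all genes tested. The model was tested on simulated data. FIG1 and FUS2 were read from the fit with no filter. Their values under the background class and with an array left out were alternatives added after seeing the data. Other alternatives were 4 scalings, other filters, 16 added before the logarithm, no trend, the compared groups alone, the background class and the replicate number as blocks, and each array left out. Spike-in scaling used 21 bacterial control probe sets.

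The members and lists were chosen with earlier results of these data known. The rule for names took all members, up to 4 called genes per role with the largest change, all mating-type markers, and the 2 nearest patterns of each member. Correlations of same-numbered arrays, as deviations from the group mean, ran from -0.298 to 0.178. With 2 arrays per mutant both numbers give the same correlation between mutants, so these values cannot show whether the numbers pair the cultures. No sequence is shown, since no sequence source was used here. The number of arrays limits the precision. The p-values measure the spread between arrays of a group, which in wild type includes the difference between the background classes. Figures were drawn with matplotlib 3.10.9.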

Additional observations from a re-analysis of the deposited data

How the results depend on the processing

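The calls of GPA1, STE4, FAR1 and AGA1 in K42A, and of GPA1, STE4 and FAR1 in K42Q, against wild type held under all 22 other settings. Members called in K42A numbered 5 whichever array was left out. They numbered 0 to 3 in K42L, with 3 without wild-type replicate 1 (GPA1 higher, FUS3 and STE12 lower), and 4 to 7 in K42Q, with 4 without K42Q replicate 1. They numbered 4 to 5 between K42A and K42L, 3 to 5 between K42Q and K42L, and 0 to 1 between K42A and K42Q. Between K42Q and K42L 7 were called within the background class, against 4. Between K42A and K42Q 1 was called under quantile scaling, with no filter, in the fit of the compared groups alone and without wild-type replicate 1, against 0. Further pathway genes called ranged with an array left out from 18 to 28 in K42A, 0 to 22 in K42L, 12 to 25 in K42Q, 17 to 38 between K42A and K42L, 10 to 25 between K42Q and K42L and 3 to 21 between K42A and K42Q. The low of 17 was without K42L replicate 1, with 19 without K42A replicate 2. Each of these highs was without wild-type replicate 1, which leaves K42L and K42Q no wild-type array of their own background class. The stricter filter, which tests fewer genes, gave 14 in K42A against 23, 20 between K42A and K42L against 31, and 7 between K42A and K42Q against 13. In K42Q 25 were called with no filter and within the class, against 16, and in K42L 1 within the class, against 0. Between K42Q and K42L 27 were called in the compared groups alone and within the class and 26 with the class as a block, against 15. Between K42A and K42L the class as a block gave 20. The direction splits of further genes were 17 higher and 14 lower between K42A and K42L (18 and 7 under spike-in scaling, 15 and 21 after median centring, 16 and 20 under quantile scaling) and 6 and 9 between K42Q and K42L (9 and 5 under spike-in scaling, 5 and 13 under quantile scaling). Members split 1 and 3 between K42Q and K42L, and 0 and 5 after median centring. The median of all genes moved to -0.18 in K42A and -0.12 in K42Q after median centring, and to 0.17 and 0.18 under spike-in scaling. The causes of these differences were not tested.

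Signs that turned belonged to small differences with no call in the fit reported. In K42A, STE18 was at -0.065 (quantile) and -0.0053 (cyclic loess), and STE12 at 0.15 (spike-in), 0.030 (replicate block), 0.0090 (without K42A replicate 1) and 0.030 (without wild-type replicate 3). In K42L, with the class as a block or within it, GPA1 was at -0.033, STE12 at 0.064 and FAR1 at -0.081. STE4 was at 0.018 (quantile), 0.0026 (cyclic loess) and 0.015 (spike-in), and SST2 at -0.0035 (median centring). With an array left out SST2 ranged from -0.066 (without wild-type replicate 2) to 0.11, and was also below 0 without K42L replicate 2 (-0.0071) and wild-type replicate 1 (-0.016). Between K42A and K42L, STE18 was at -0.21 (quantile), -0.15 (median centring), -0.14 (cyclic loess), -0.038 (class as a block) and -0.091 to 0.10 with an array left out (lowest without K42L replicate 1), and STE12 at -0.074 (median centring) and -0.18 (class as a block). Between K42A and K42Q with the class as a block, GPA1 was at 0.21, FAR1 at 0.047, AGA1 at -0.19 and SST2 at -0.071. SST2 was also at -0.036 (quantile), -0.042 (median centring) and -0.026 (cyclic loess), and from -0.17 to 0.19 with an array left out, below 0 without K42A replicate 1 (-0.17) and K42Q replicate 1 (-0.082).

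The replicate number as a block gave 5 called members in K42A, against 5, and 5 in K42Q, against 7, with the STE18 and STE12 calls lost (0.34 and -0.26). It called 0 members in K42L, 4 in each of K42A and K42Q against K42L and 0 between K42A and K42Q, as without the block. K42A has no value within the background class against K42L or K42Q, which lie in the other class. Signals near the array background, such as those of MF(ALPHA)1 and HMLALPHA1, limit what can be read from those genes.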

Other observations

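Further genes of fusion and nuclear fusion lay under the filter on low signals and were read from the fit with no filter. They were chosen after their values were seen. In that fit 30.8% of all genes were higher in K42A and 28.7% in K42Q, and the share among genes under the filter was not counted. PRM1, for a membrane protein of cell fusion, had signals of 133.9 and 184.0 in K42A, 36.1 and 30.7 in K42L, and 95.3 and 108.8 in K42Q, against 38.9, 39.2 and 43.6 in wild type. It was higher by 1.95 ± 0.15 in K42A and by 1.33 ± 0.15 in K42Q. PRM2, a pheromone-regulated gene, had 65.5 and 66.4 in K42A, 15.1 and 12 in K42L, and 71.7 and 76.8 in K42Q, against 7.8, 9.5 and 14.1 in wild type. The 4 K42A and K42Q arrays lay above the other 5, but PRM2 was at or near array background in wild type and under it on wild-type replicate 2, so no fold is given. KAR5, for a protein of nuclear fusion, was higher by 0.84 ± 0.13 in K42A and by 0.40 ± 0.13 in K42Q. CIK1, for a partner of the nuclear fusion motor, differed by 0.21 ± 0.10 in K42A and 0.17 ± 0.10 in K42Q and was not called. STE3, the receptor gene of alpha cells, was higher by 1.05 ± 0.12 in K42A and by 1.09 ± 0.12 in K42Q. MF(ALPHA)2 was at 12.6, 19.5 and 14.0 in wild type, where the 95th percentiles of array background were 5.0, 9.6 and 8.8. Its signals there lay near background, so no fold is given for it.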
